A study of Rattus norvegicus with 6 samples.

Results

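The Slc25 family of mitochondrial solute carriers was described in rat tendon stem/progenitor cells cultured with or without N-acetyl-L-cysteine (NAC), a thiol antioxidant that cells can use as a source of cysteine. Members were all rows of the deposited expression table whose gene symbol is Slc25a followed by a number and nothing else. This gave 43 of 33300 genes, all 43 of them protein-coding, on 17 chromosomes. The table gives FPKM (fragments per kilobase, scaled by the authors with a total for each library). It covers 3 libraries of cells grown in F12 medium (Control) and 3 of cells grown in F12 with 500 uM NAC, all taken at 7 days. Every sample carries the labels tendon, mesenchymal stem cells and tenogenic differentiation. The labels give no strain, age or sex of the rats, and they do not say whether replicate libraries stem from separate cultures or animals. The p-values therefore reflect the spread among these 6 samples, which may be technical.

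Slc25 proteins are carriers of the inner mitochondrial membrane, with a few exceptions in the outer membrane or in peroxisomes. They are encoded in the nucleus and made in the cytosol, and each moves a narrow set of compounds that the membrane would otherwise hold back, such as ADP and ATP, phosphate, citrate, amino acids, iron or cofactors. Most work as exchangers, so that the entry of one compound is tied to the exit of another. Glutathione, for which NAC can supply the cysteine, is made in the cytosol and reaches the mitochondrial matrix through Slc25a39 and Slc25a40.

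Library size, as worked back from the FPKM steps, ran from 12487215 to 14941949 reads, and 1 read at the median length of the members was worth 0.0378 to 0.0441 FPKM. Read counts cover counting error only. The 7 tendon markers were present in all 6 libraries. Their summed level ran from 8410 to 8728 FPKM in Control and from 12926 to 13923 FPKM in NAC. Most of this sum came from the matrix genes Dcn, Col1a1, Lum and Col1a2, each higher in every NAC library than in any Control library. Among them, the collagen gene Col1a1 had 2787, 2589 and 2818 FPKM in Control and 5723, 5412 and 5223 FPKM in NAC, and the part of this difference in the values of the family was not tested. The tendon transcription factors did not share this rise. Scx stood at 12.5 ± 1.30 FPKM in Control and 11.6 ± 0.700 FPKM in NAC, and Mkx at 5.28 ± 0.394 and 3.90 ± 1.07 FPKM (SD). The groups of both overlapped. Tnmd was higher in NAC, at 1.41 ± 0.369 and 2.55 ± 0.537 FPKM (SD). Ptprc (leukocytes) and Cdh5 (endothelium) were listed at 0 in all libraries. The other leukocyte markers were present, Cd14 at 13.6 to 17.2 FPKM and Cd68 at 3.68 to 7.03 FPKM. The endothelial marker Kdr had 0.118 to 0.453 FPKM. Of the 2 brown fat markers, the uncoupling protein gene Ucp1 had at most 0.0615 FPKM and Cidea 1.35 to 2.70 FPKM. In bulk RNA, fewer cells of a type and less RNA per cell cannot be told apart. Control 2 stood apart from the other Control libraries: among the 33 members tested, it held the highest of the 3 Control values in 16 (48.5%), against 37.3% of all tested genes.

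With NAC, 2 of the 33 tested members rose and none fell. Slc25a10, the dicarboxylate carrier, exchanges malate or succinate for phosphate and had higher values in every NAC library than in any Control library. Slc25a48, reported to carry choline, had 0, 7 and 2 reads in the Control libraries and 27, 28 and 21 in the NAC libraries. It met the mean of 1 FPKM needed for testing only through its NAC libraries, a selection that favours a difference. These 2 members are 6.06% of those tested, beside 6.08% of all 12733 tested genes called higher and 2.72% called lower (8.80% in either direction), so the share of calls in the family lay near the background. The abundant carriers of ADP/ATP, phosphate and glutathione did not pass the test. The promoters of the called pair are shown because they are the members on which the comparison turns. They are the 250 bases before the annotated start, from RefSeq on build GRCr8, 5′ to 3′ on the gene's strand, with capitals for a motif match. The regions are chr10:106264146-106264395 (plus strand) for Slc25a10 and chr17:8172377-8172626 (minus strand) for Slc25a48.
Slc25a10: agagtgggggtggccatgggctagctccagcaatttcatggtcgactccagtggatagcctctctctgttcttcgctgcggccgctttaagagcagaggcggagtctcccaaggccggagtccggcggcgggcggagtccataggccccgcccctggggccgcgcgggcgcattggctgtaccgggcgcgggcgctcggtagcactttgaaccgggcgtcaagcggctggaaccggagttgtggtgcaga
Slc25a48: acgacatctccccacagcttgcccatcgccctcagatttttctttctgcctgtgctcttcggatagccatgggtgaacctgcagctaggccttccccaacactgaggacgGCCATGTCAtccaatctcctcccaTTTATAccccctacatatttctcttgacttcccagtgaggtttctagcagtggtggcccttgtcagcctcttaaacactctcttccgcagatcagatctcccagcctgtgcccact

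In these windows 4 motifs were searched on both strands: the core of the antioxidant response element (TGACNNNGC), the NRF1 half-site (TGCGCA), the core of the amino acid response element (TGATGNAA) and the TATA box (TATAAA). Slc25a48 held the antioxidant response element core and the letters of the TATA box, both on the opposite strand, at -140 to -132 and -116 to -111 from the start, with no overlap. Slc25a10 held none of the 4. Of 27457 promoters of the same length, 10.2% held the antioxidant response element core, 6.57% the NRF1 half-site, 3.27% the amino acid response element core and 13.1% the TATA box. Among the 38 members with a promoter entry, 3 held the antioxidant response element core (Slc25a25, Slc25a43 and Slc25a48), 4 the NRF1 half-site (Slc25a3, Slc25a12, Slc25a25 and Slc25a31), 2 the TATA box (Slc25a38 and Slc25a48) and none the amino acid response element core. The matches are descriptions of letters in a window. Base composition is given beside level as a description. The 28 matched members with a mean FPKM of at least 1 had a median of 62.6% G and C and 17 CG pairs, the 10 below it 52.8% and 6.5 pairs, and all promoters 52.0% and 6 pairs.

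Of the 43 members, 33 had a mean of at least 1 FPKM over the 6 libraries and 10 did not. By that mean, 2 members exceeded 100 FPKM, 13 lay between 10 and 100, and 18 between 1 and 10. Below 1 FPKM, 6 had some reads and 4 were listed at 0 in every library. Counted library by library, 32 members reached 1 FPKM in all 3 Control libraries, 32 in all 3 NAC libraries and 31 in all 6. The exceptions were Slc25a48, under 1 FPKM in Control, and Slc25a2, under 1 FPKM in NAC 2. The summed level of the family was 1009.9 ± 60.4 FPKM in Control and 1082 ± 33.8 FPKM in NAC (SD, n = 3), and the 5 most abundant members held 70.6% to 73.0% of it. Among the 33 members, 24 of 32 neighbours in the order of level had overlapping ranges over the 6 libraries. The first 5 members, down to Slc25a39, each had a range that did not overlap with that of the next.

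**Figure D1:**
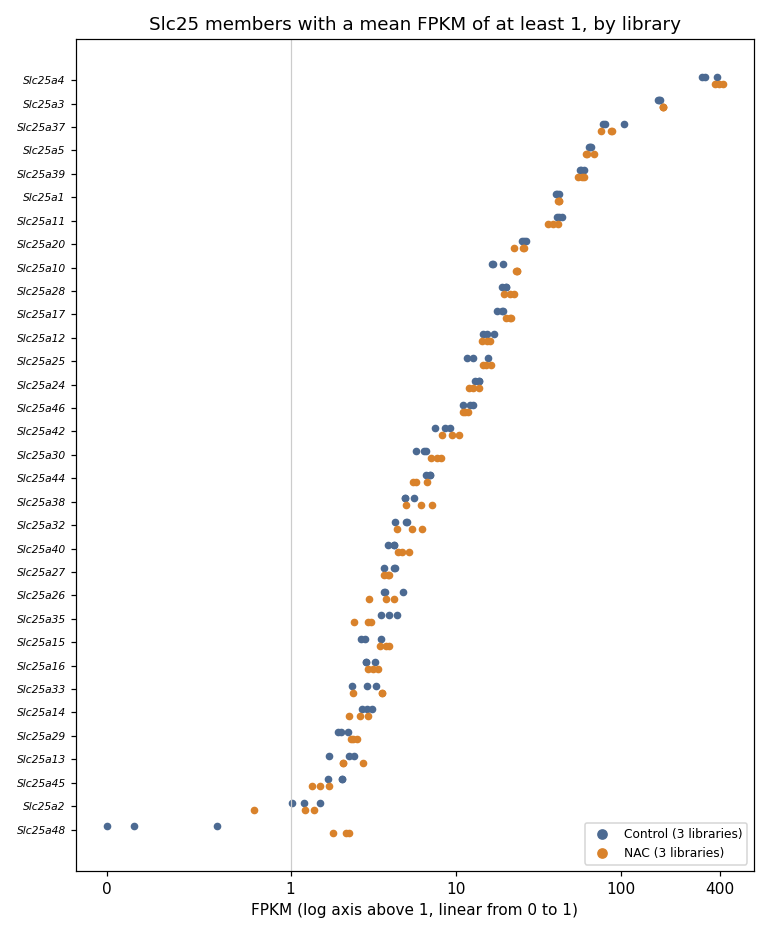
FPKM of the 33 Slc25 members with a mean of at least 1 FPKM, 1 point per library (blue Control, orange NAC), ordered by mean. Slc25a4 stands highest in every library, and Slc25a48 is the member whose 3 Control values lie below 1 while its NAC values lie above.

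The ADP/ATP carriers bring ADP into the matrix and export the ATP made there. Slc25a4, the isoform typical of heart and skeletal muscle, was the most abundant member, with 325, 384 and 309.7 FPKM in Control and 374, 396 and 415 FPKM in NAC. The highest Control library, Control 2, lay above NAC 1, so the groups overlapped. The log2 fold change was 0.22 ± 0.0842 (SE; limma adjusted p = 0.153) and passed only without Control 2 (0.31, adjusted p = 0.0223; range over all alternatives 0.0223 to 0.882). Slc25a5, the isoform of proliferating and most other cells, stood at 65.5, 64.4 and 65.7 FPKM in Control and 62.9, 61.9 and 68.5 FPKM in NAC, and its groups overlapped (adjusted p = 0.848). Slc25a4 thus exceeded Slc25a5 in each library, 4.71-fold to 5.96-fold in Control and 5.96-fold to 6.40-fold in NAC. Of the 3 skeletal muscle markers, Myh1 reached at most 0.101 FPKM and Ckm 0.0552 FPKM, while Acta1 stood at 3.64 to 5.12 FPKM. Their sum was 3.73 to 4.81 FPKM in Control and 3.79 to 5.19 FPKM in NAC, and its part in the level of Slc25a4 was not tested. Slc25a31, the isoform of male germ cells, was listed at 0 in every library. RefSeq names 9 pseudogenes after Slc25a5 and 1 after Slc25a4, and no label or header says how reads shared with such copies were counted, which makes the levels of both uncertain.

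Slc25a3 imports the phosphate that ATP synthase consumes. It was the second most abundant member, with 173, 170.1 and 167 FPKM in Control and 180.1, 180.4 and 180.5 FPKM in NAC. All NAC values lay above all Control values, by 5.997% on the means, but the change did not pass the test (0.084 ± 0.0309, SE; adjusted p = 0.147). It turned to -0.090 when values were scaled to library totals. Carriers that exchange ATP-Mg for phosphate, and so set the adenine nucleotide content of the matrix, were represented by Slc25a25 and Slc25a24. Slc25a25 went from 13.4 ± 2.10 to 15.4 ± 0.860 FPKM (SD, n = 3; adjusted p = 0.291) and passed only without Control 2 (0.31, adjusted p = 0.0494; range 0.0494 to 0.825). Slc25a24 stood at 13.6 ± 0.458 and 12.9 ± 0.932 FPKM (adjusted p = 0.516). The other 2 genes of this group were at the floor: Slc25a23 had 1, 3 and 1 reads in Control and none in NAC, and Slc25a41 had none in any library.

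Carriers of di- and tricarboxylates link the citric acid cycle to the cytosol. Slc25a10 (ENSRNOG00000036693, chromosome 10, 109665682 to 109673143 as deposited) had 19.3, 16.8 and 16.5 FPKM in Control and 23.4, 23.4 and 23.3 FPKM in NAC, from 411 to 610 reads a library. The NAC values were nearly equal and lay above all Control values. The rise was 0.40 ± 0.0630 (log2, SE; limma adjusted p = 0.0143), or 33.3% on the means. The call held in 13 of 16 alternatives and ended without Control 3, NAC 1 or NAC 2 (adjusted p = 0.0524, 0.0620 and 0.0641). With library totals the change fell to 0.23, still past the threshold. Slc25a1, which exports citrate for lipid synthesis, stood at 41.3 ± 0.783 and 42.1 ± 0.436 FPKM (SD, n = 3; adjusted p = 0.657). Slc25a11, the oxoglutarate carrier of the malate-aspartate shuttle, stood at 42.4 ± 1.33 and 38.8 ± 2.71 FPKM (adjusted p = 0.231). Slc25a21, a carrier of oxoadipate, had 0.343 to 0.637 FPKM.

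**Figure D2:**
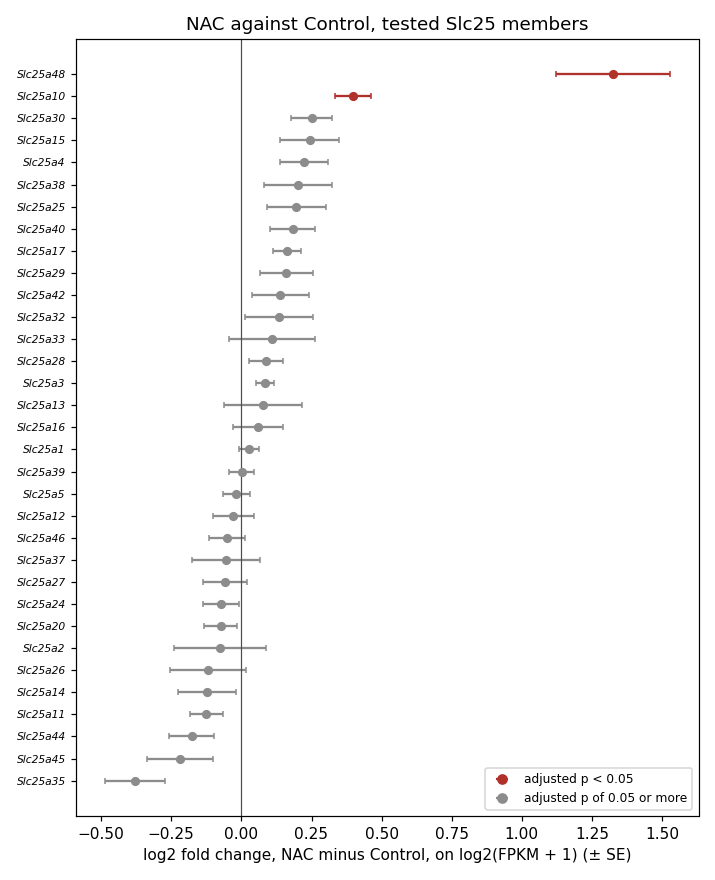
Log2 fold change (NAC minus Control, on log2(FPKM + 1)) of each tested member with its standard error. Red marks the 2 members past an adjusted p of 0.05, Slc25a48 at 1.33 and Slc25a10 at 0.40; the other 31 lie between -0.38 and 0.25.

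Slc25a48 (ENSRNOG00000012040, chromosome 17, 8570472 to 8607494 as deposited) had 0, 7 and 2 reads in the Control libraries and 27, 28 and 21 in the NAC libraries. In FPKM these are 0, 0.599 and 0.148 against 2.17, 2.24 and 1.82, and the groups lie far apart. The Control libraries held 9 reads together, 7 of them in Control 2, and the NAC libraries 76. Control 1 and Control 3 lay under the floor, taken as 3 reads a library, so no ratio of means is given. On log2(FPKM + 1), which understates the change of low genes, the rise was 1.33 ± 0.204 (SE; limma adjusted p = 0.0135). It was 3.69 by voom on the recovered reads (adjusted p = 0.0109) and, on log2(FPKM + 1), 1.52 without Control 2 (adjusted p = 0.00643). The gene met the minimum of 1 FPKM only through its NAC libraries, a selection that favours a difference. With no filter it was still called (adjusted p = 0.0241). The call ended without Control 3, NAC 1 or NAC 2 (adjusted p = 0.0512, 0.0610 and 0.0647; range over all alternatives 0.00643 to 0.0647).

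**Figure D3:**
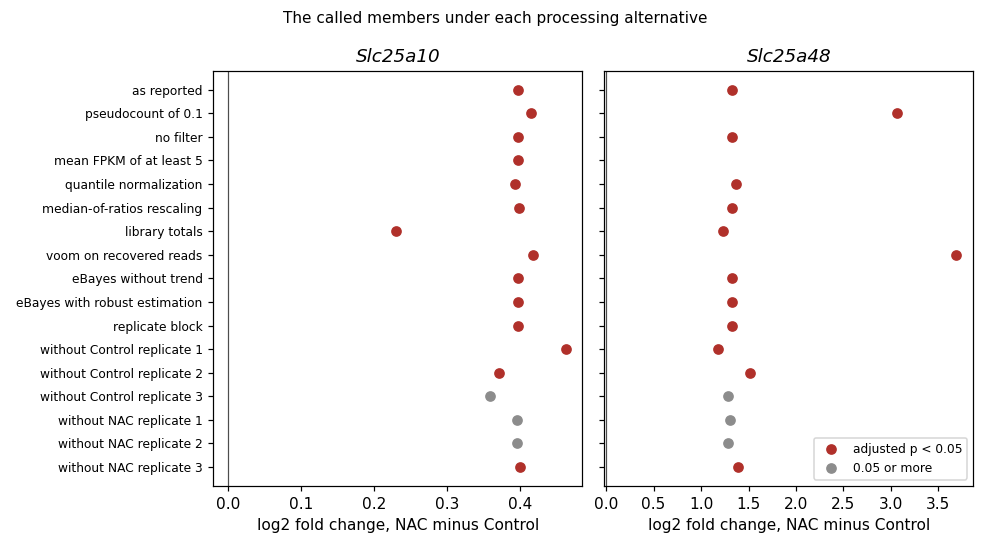
Log2 fold change of Slc25a10 (left) and Slc25a48 (right) under each way of processing the values, red where the adjusted p is under 0.05. All points lie to the right of 0, and the 3 grey points of each gene are the fits without Control 3, NAC 1 and NAC 2. Slc25a48 has no point at a mean of at least 5 FPKM, which it does not reach.

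The glutathione carriers were named whatever their result, since NAC can supply cysteine for glutathione. Slc25a39 stood at 59.7, 56.3 and 57.2 FPKM in Control and 60.0, 55.4 and 58.0 FPKM in NAC. The groups overlapped throughout, and the log2 difference was 0.0013 ± 0.0446 (SE; adjusted p = 0.989), which became -0.17 (adjusted p = 0.0364), and so a call, once values were scaled to library totals. Slc25a40, its closest relative, stood at 3.88, 4.24 and 4.25 FPKM in Control and 4.46, 5.24 and 4.76 FPKM in NAC. Its NAC values all lay above Control, by 16.9% on the means, and did not pass the test (0.18 ± 0.0801, SE; adjusted p = 0.205). RefSeq names 8 pseudogenes after Slc25a39. Slc25a40 overlaps Rundc3b on the opposite strand over 10114 bases, but that gene had at most 0.0393 FPKM.

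The mitoferrins bring iron into mitochondria for haem and iron-sulfur clusters. Slc25a37, best known from developing red cells, was the third most abundant member, at 78.3, 105 and 80.5 FPKM in Control and 75.5, 87.8 and 89.0 FPKM in NAC. Control 2 was the highest library and the groups overlapped (adjusted p = 0.816). Slc25a28, the form found in most tissues, stood at 19.8 ± 0.697 and 21.1 ± 1.42 FPKM (SD, n = 3; adjusted p = 0.406). Every Slc25a37 value exceeded every Slc25a28 value.

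Amino acid carriers were mostly low, and none of the 7 tested passed the test. Slc25a12, the aspartate-glutamate exchanger of the malate-aspartate shuttle, stood at 15.7 ± 1.29 and 15.4 ± 0.876 FPKM (SD, n = 3). Its isoform Slc25a13, the form prominent in liver, stood at 2.13 ± 0.382 and 2.30 ± 0.380 FPKM. Slc25a44, a carrier of branched-chain amino acids, stood at 6.88 ± 0.218 and 5.98 ± 0.617 FPKM (adjusted p = 0.208). Slc25a38, which supplies glycine for haem synthesis, stood at 5.14 ± 0.402 and 6.11 ± 1.09 FPKM (adjusted p = 0.341). The ornithine carrier Slc25a15 of the urea cycle stood at 3.01 ± 0.467 and 3.73 ± 0.233 FPKM (adjusted p = 0.202). The basic amino acid carrier Slc25a29 stood at 2.06 ± 0.148 and 2.42 ± 0.1005 FPKM (adjusted p = 0.324), with its NAC values above Control. Slc25a2, a second ornithine carrier, had 0.799 to 1.51 FPKM.

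The glutamate carriers Slc25a18 and Slc25a22 were listed at or near 0. Slc25a18 had 1 read in Control 3 and 1 in NAC 2. Slc25a22 was listed at 0 in all 6 libraries, but the zero cannot be read as absence. Its neighbours Cend1, Pidd1 and Pnpla2 were also listed at 0, and Rplp2, a ribosomal protein gene used by every cell, had at most 0.212 FPKM there. Cd151, a widely expressed tetraspanin in the same stretch, had at most 0.436 FPKM. How reads from that stretch were placed was not tested. LOC100911440, a gene annotated with the mitochondrial carrier domain further along chromosome 1, had 0.668 to 3.70 FPKM. Whether it is a copy of Slc25a22 was not tested.

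Of the members that carry nucleotides and cofactors, 5 were tested and none passed. All 5 had a log2 difference above 0, beside 48.5% of all tested genes. Slc25a36l1, listed as a pyrimidine nucleotide carrier but outside the members by its name, went the other way (-0.16, limma adjusted p = 0.101). Slc25a17, a peroxisomal carrier of coenzyme A and related nucleotides, had 19.3, 19.2 and 17.9 FPKM in Control and 20.3, 21.4 and 21.7 FPKM in NAC. The groups did not overlap (0.16 ± 0.0510, SE; adjusted p = 0.101), and the value turned to -0.0036 with library totals. Slc25a42, a mitochondrial coenzyme A carrier, stood at 8.44 ± 0.887 and 9.40 ± 1.05 FPKM (SD, n = 3). Slc25a32, which carries folate or FAD, stood at 4.79 ± 0.422 and 5.39 ± 0.924 FPKM. Slc25a16 stood at 3.00 ± 0.212 and 3.16 ± 0.223 FPKM, and Slc25a33, a pyrimidine nucleotide carrier, at 2.85 ± 0.470 and 3.17 ± 0.673 FPKM. The directions of Slc25a16, Slc25a32, Slc25a33 and Slc25a42 also turned with library totals. Slc25a20, which brings acylcarnitines in for fatty acid oxidation, stood at 26.0 ± 0.638 and 24.6 ± 1.73 FPKM (adjusted p = 0.473). Slc25a26, the S-adenosylmethionine carrier, stood at 4.07 ± 0.627 and 3.68 ± 0.639 FPKM (adjusted p = 0.623).

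Among carriers related to the uncoupling proteins, Slc25a30 had 5.79, 6.39 and 6.60 FPKM in Control and 7.13, 7.66 and 8.13 FPKM in NAC. Its groups did not overlap, with a difference of 22.0% on the means, and it missed the threshold (0.25 ± 0.0738, SE; adjusted p = 0.0859). Slc25a27 stood at 4.05 ± 0.310 and 3.85 ± 0.140 FPKM and Slc25a14 at 2.92 ± 0.191 and 2.61 ± 0.352 FPKM (SD, n = 3). Slc25a46, an outer membrane protein that acts in mitochondrial shape, stood at 11.9 ± 0.836 and 11.5 ± 0.394 FPKM. Slc25a45 stood at 1.93 ± 0.211 and 1.52 ± 0.179 FPKM (adjusted p = 0.288).

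Slc25a35 was the one tested member whose NAC values all lay below Control, with 3.92, 3.55 and 4.40 FPKM against 3.07, 2.94 and 2.42 FPKM. The difference of -0.38 ± 0.107 (log2, SE) missed the threshold (adjusted p = 0.0772). Scaling to library totals made it a call at -0.51 (adjusted p = 0.0151), and the alternatives spanned adjusted p-values of 0.0151 to 0.202. The gene shares 42 bases with Rangrf on the opposite strand. Rangrf fell from 11.4, 12.01 and 10.7 to 9.59, 8.79 and 9.10 FPKM (-0.28 ± 0.0625, SE; adjusted p = 0.0414). Without strand information, reads of such a pair cannot be told apart in the shared bases, and the part of this in the Slc25a35 value was not tested.

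Control and NAC values did not overlap in 8 of the 33 tested members. NAC lay above in 7, beside 16.7% of all tested genes, and below in 1, beside 15.9%. At an unadjusted p under 0.05 there were 6 higher and 1 lower, beside 26.3% of all tested genes in either direction (1836 higher and 1519 lower of 12733). The median log2 fold change of the 33 was 0.059, with 19 above 0 (57.6%) and 14 below. That of all tested genes was -0.0063, with 48.5% above 0. The median of the members was 0.026 without Control 1, 0.035 to 0.038 without Control 3 or any 1 of the NAC libraries, 0.0013 with no filter (39 members) and -0.0013 with quantile normalization. It was larger, at 0.079, without Control 2, 0.076 with a pseudocount of 0.1 and 0.080 with voom. Scaled to library totals the medians were -0.090 and -0.16, the same 2 members were higher, and 9 were called lower (27.3% of members, beside 29.2% of all tested genes), so directions of small differences depend on the scaling. These 9 were Slc25a1, Slc25a5, Slc25a11, Slc25a20, Slc25a24, Slc25a35, Slc25a39, Slc25a44 and Slc25a46, at -0.14 to -0.51. The authors' scaling total, worked back from the FPKM steps, was 1.03 ± 0.0122 times the recovered reads in Control libraries. In NAC libraries it was 0.916 ± 0.00812 times the recovered reads (SD, n = 3). Scaling to library totals puts the recovered reads in its place. The share of reads in the 10 most abundant genes was 12.6 ± 0.201% for Control libraries and 15.7 ± 0.264% for NAC libraries (SD, n = 3).

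**Figure D4:**
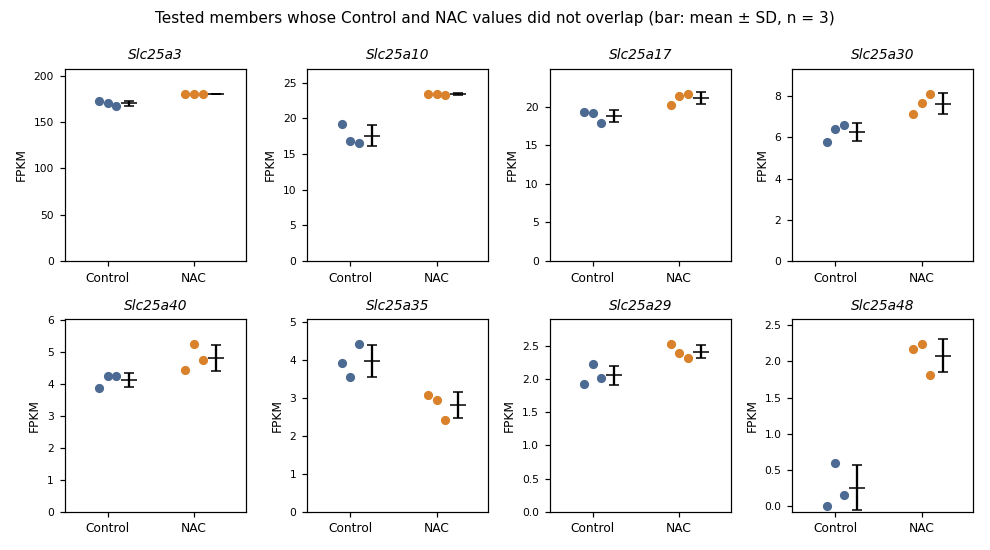
FPKM by library of the 8 tested members whose groups did not overlap, with mean ± SD (n = 3) beside the points. NAC lies above Control in 7 panels and below it in Slc25a35; Slc25a10 and Slc25a48 are the pair that passed the test.

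Slc25 genes that lie close together on a chromosome differed in level. On chromosome 2, Slc25a24 had 12.01 to 13.9 FPKM, while Slc25a54, 4.64 kb away with no gene between them, was listed at 0. On chromosome X, Slc25a5 had 61.9 to 68.5 FPKM and Slc25a43, 19.7 kb away, 0.0676 to 0.541 FPKM. On chromosome 6, Slc25a29 had 1.93 to 2.52 FPKM and Slc25a47, a gene of liver 14.5 kb away, at most 0.0721 FPKM. In the fourth pair, Slc25a23 and Slc25a41 on chromosome 9, both were at or under the floor. Slc25a34 had 0.545 to 1.04 FPKM, which completes the 10 members with a mean below 1 FPKM.

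**Figure D5:**
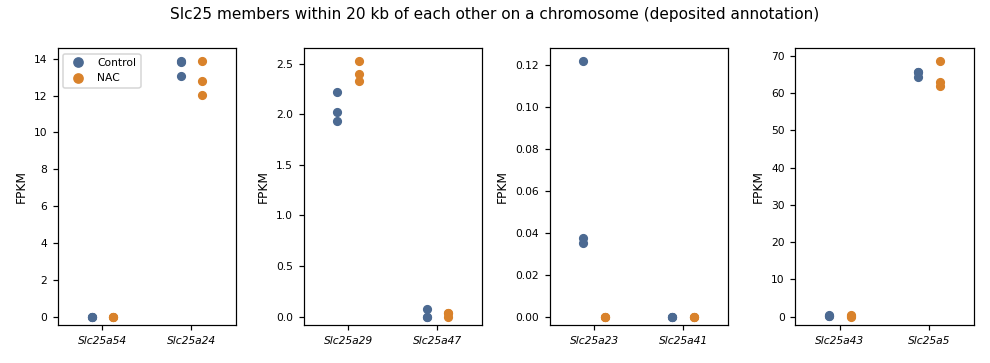
FPKM by library (blue Control, orange NAC) of the 4 pairs of Slc25 genes that lie within 20 kb of each other. In the pairs with Slc25a24, Slc25a29 and Slc25a5 the named partner stands above the other in every library, and in the third panel neither gene exceeds 0.122 FPKM.

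A list of 42 other genes of mitochondrial transport was set beside the family, and 39 of them were tested. Of these, 1 rose and 2 fell, beside the same 6.08% and 2.72% of all tested genes, with a median log2 fold change of 0.011. NAC values lay wholly above Control in 5 and wholly below in 9, beside 16.7% and 15.9% of all tested genes. At an unadjusted limma p under 0.05 there were 2 higher and 8 lower, beside 26.3% of all tested genes in either direction. Split by direction, 1836 of all 12733 tested genes were higher and 1519 lower at that limit. Mtch1, a distant outer membrane relative of the Slc25 carriers that inserts proteins there, rose from 198, 203 and 199.6 to 221, 221 and 228 FPKM (0.16 ± 0.0324, SE; adjusted p = 0.0341). The Mtch1 call ended in 9 of 16 alternatives, among them each leave-out other than Control 2, and its value turned to -0.019 with library totals. Cpt1a, which makes the acylcarnitines that Slc25a20 imports, fell from 32.6, 33.2 and 33.4 to 25.04, 25.7 and 27.8 FPKM (-0.33 ± 0.0492, SE; adjusted p = 0.0125). Its groups lay apart, and its call ended without Control 3, NAC 1 or NAC 2. Cpt1c, the form of brain, fell from 23.9, 22.0 and 22.9 to 19.7, 19.9 and 18.5 FPKM (-0.23 ± 0.0508, SE; adjusted p = 0.0400). The Cpt1c call ended in 8 of 16 alternatives, among them each leave-out other than Control 2.

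None of the 11 genes of carrier import passed, including Timm22, the core of the complex that inserts carriers into the inner membrane (14.2 ± 0.251 and 14.7 ± 0.345 FPKM, SD, n = 3). Timm10 differed most, with 7.15, 6.99 and 5.36 FPKM in Control and 4.88, 4.25 and 4.66 FPKM in NAC. Its groups did not overlap, and it missed the threshold (log2 difference -0.41 ± 0.111, SE, limma adjusted p = 0.0681). Of the 11, 7 had a log2 difference above 0 and 4 below. The pyruvate carrier genes Mpc1 and Mpc2 stood at 28.7 ± 3.55 and 29.1 ± 2.07 FPKM and at 73.2 ± 3.50 and 78.8 ± 8.46 FPKM. The porins Vdac1, Vdac2 and Vdac3, which pass metabolites through the outer membrane, had adjusted p-values of 0.324, 0.599 and 0.304. Sfxn1, a serine carrier, stood at 40.4 ± 2.46 and 48.0 ± 2.47 FPKM and just missed the threshold (adjusted p = 0.0521).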

How the data were processed

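RNA was sequenced in 6 samples of rat cells, with libraries made with a SMARTer mRNA kit per the labels' protocols. The authors deposited 1 table of FPKM values with gene symbols, positions and lengths. Aligner, counter and strand setting: not given in the sources used here. Per the submitters' processing notes the builds were GRCm38 and mm10, both of mouse, but the identifiers are rat, and the build behind the deposited coordinates is therefore unknown. Columns headed N were taken as Control, since the other 3 are headed NAC.

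Multiplied by gene length, 100% of FPKM values were whole multiples of a library's smallest step (tolerance 0.01), which gave reads. Genes with a mean of at least 1 FPKM were tested on log2(FPKM + 1) with limma 3.58.1 in R 4.3.3 (eBayes with trend, group as the only term, two-sided), with Benjamini-Hochberg adjustment over 12733 genes at a threshold of 0.05. The test was checked on simulated data. Figures used Python 3.11.15 and matplotlib 3.10.9. Alternatives were another pseudocount, 2 other filters, 3 other scalings, voom, eBayes without trend or robust, the replicate block and 6 leave-outs. Members, lists and the rule for named genes were chosen with earlier results of these data known. The rule gave values in every sample to called members, the 5 most abundant, Slc25a39, Slc25a40 and the 5 uncalled members of lowest p. No pair of replicates matched within sampling noise (3.66 to 9.53 as chi-square over degrees of freedom).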

Additional observations from a re-analysis of the deposited data

How the results depend on the processing

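Of 515 values of single Slc25 members under 16 alternatives, 498 kept their side of the threshold, and the exceptions were 6 calls lost, 9 gained and 2 reversed. The 2 that changed sign and passed the threshold came with library totals, Slc25a39 at -0.17 and Slc25a1 at -0.14, and the called Mtch1 turned to -0.019 there. Counting values that passed no threshold, signs changed in 26, 10 with library totals and 16, in 8 members, with other alternatives. Members called higher numbered 2 in the fit as reported, 1 at a mean of at least 5 FPKM, where Slc25a48 is not tested, and 0 to 4 when 1 library was left out: 4 without Control 2 (with Slc25a4 and Slc25a25 added) and 0 without Control 3, NAC 1 or NAC 2. Members called lower numbered 0, and 9 with library totals, where the median of the family moved from 0.059 to -0.090. Over all genes, 774 were higher and 346 lower as reported, 467 and 3722 with library totals (11.1% higher), and 264 to 859 and 51 to 347 with 1 library left out. Genes called lower numbered 207 without a filter, 529 with voom and 206 without trend. In the transport list, the count of 1 higher became 2 at a mean of at least 5 FPKM, with median-of-ratios rescaling, with voom and with robust estimation, 0 with quantile normalization, library totals or no trend, and 0 to 2 in the leave-outs. Its 2 lower became 1 without a filter or without trend, 3 with quantile normalization and 0 to 2 in the leave-outs. With library totals 17 of its 39 tested genes were lower, beside 29.2% of all tested genes. With the replicate block 466 genes were higher and 110 lower, 1 gene of the transport list was lower, and the same 2 Slc25 members were called. The replicate numbers were not treated as pairs, since they are not said to mark a shared donor or batch. The deviations of same-numbered libraries correlated at 0.063, 0.059 and -0.050, and not every library correlated best with its own number. With so few libraries a group, these correlations cannot decide whether the numbers mark pairs. The cause of the changes between alternatives was not tested. Depth limits members of low level: a member at 1 FPKM rests on about 20 reads a library (Slc25a2, 13 to 23 reads).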

Other observations

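The deposited table annotates 60 genes with the mitochondrial carrier domain, all 43 members among them. The other 17 carry other names, and 8 of these had a mean of at least 1 FPKM. Slc25a36l1, listed as a pyrimidine nucleotide carrier, had 54.4, 56.9 and 56.1 FPKM in Control and 52.4, 50.5 and 46.9 FPKM in NAC, so its NAC values all lay below Control, without passing the test (limma adjusted p = 0.101). At that level it would stand among the most abundant members. Mtch2, an outer membrane insertase related to Mtch1, had 59.2, 60.3 and 57.4 FPKM in Control and 53.8, 51.4 and 55.7 FPKM in NAC, also without overlap and without passing (adjusted p = 0.109). Ucp2, an uncoupling protein relative, had 17.7, 22.4 and 20.9 FPKM in Control and 15.4, 17.1 and 19.4 FPKM in NAC, and its groups overlapped. Ucp1 and Ucp3 were at or under the floor of 3 reads in every library.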
